A study of Mus musculus with 6 samples.

Results

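The mouse X chromosome carries a short group of microRNA (miRNA) hairpins, Mir532, Mir188, Mir362, Mir501 and Mir500, inside the gene Clcn5. The signals of their mature products were compared here between mouse embryonic stem cells (mESCs) and embryoid bodies (EBs), the aggregates that mESCs form when they begin to differentiate. The entries were taken by name, as every arm of miR-188, miR-362, miR-500, miR-501, miR-532 and miR-660 on the array, and the group was selected on measured values, the array signals of its members and their differences between these samples. The array held 10 such entries among 1247 mouse miRNAs, none of them named miR-660.

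The study profiled 3 groups with 2 single-colour arrays each. Hypoxic EBs were kept under hypoxia for 16 h, normoxic EBs under normoxia for 16 h, and mESCs under normoxia for 16 h. EBs were made from C57-mESCs in hanging drops without leukaemia inhibitory factor (LIF) and without feeder cells, whereas the mESCs grew with LIF on mitomycin C-treated mouse embryonic fibroblasts. The oxygen level is not given in the sources used here, and the labels do not say whether both arrays of a group came from separate cultures. The p-values behind the calls then measure only the spread between arrays, which may be technical. An exact permutation test of 2 arrays against 2, two-sided, gives no p below 0.333.

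A miRNA hairpin is cut from a longer transcript in the nucleus, and the cytoplasmic enzyme Dicer then releases a duplex with a 5p and a 3p arm. One arm is usually kept in an Argonaute protein, where its seed, bases 2 to 8, pairs with messenger RNAs and lowers their stability or translation. Hairpins that lie close together on a strand are often cut from a shared transcript, and those within an intron often share the promoter of their host gene. The host here, Clcn5, encodes a chloride and proton exchanger of endosomes, and loss of its human counterpart causes Dent disease of the kidney.

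The RefSeq tables of GRCm38.p6 place all 5 hairpins on the minus strand of chromosome X within Clcn5 (chrX:7153810-7319358). Read in the direction of transcription, Mir532 (chrX:7248402-7248497) comes first and Mir188 (chrX:7247989-7248056) follows 345 bases later. Mir362 (chrX:7241982-7242046) lies 5942 bases beyond Mir188, Mir501 (chrX:7241243-7241351) 630 bases beyond Mir362, and Mir500 (chrX:7237683-7237774) 3468 bases beyond Mir501. The whole group spans 10.8 kb. Clcn5 has 2 listed starts, at positions 7319358 and 7188714; all 5 hairpins lie between them, so a transcript from the downstream start does not contain them.

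The sequences below are those of the 3 arms detected on every array and of miR-501-3p, which shares a seed with miR-500-3p but was not detected. They are RefSeq mature sequences of GRCm38.p6, with the seed in capitals; a mature sequence was matched for 9 of the 10 entries.
mmu-miR-188-5p: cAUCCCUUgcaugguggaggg
mmu-miR-362-3p: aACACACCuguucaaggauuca
mmu-miR-500-3p: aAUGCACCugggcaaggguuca
mmu-miR-501-3p: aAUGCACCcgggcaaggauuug
The 3p arms shown here resemble each other: miR-362-3p and miR-500-3p are identical at 17 of 22 positions, although their seeds differ at 2 bases. miR-188-5p has another seed, AUCCCUU. miR-500-3p and miR-501-3p share the seed AUGCACC and are identical at 18 of 22 positions. Counted from the 5′ end of miR-500-3p, miR-501-3p differs by U9C, G18A, C21U and A22G. The undetected 5p arms miR-362-5p and miR-500-5p also have a seed in common, AUCCUUG.

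**Figure D1:**
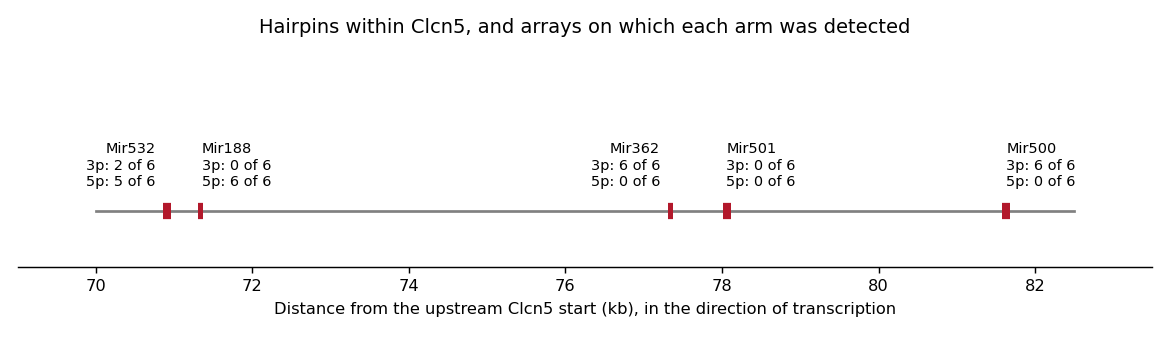
Positions of the 5 hairpins along Clcn5 (horizontal axis, kb from the upstream start, in the direction of transcription), with the number of the 6 arrays on which the scanner called each arm detected. Mir532 and Mir188 are 345 bases apart; of Mir501 neither arm was detected.

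Detection differed between the arms. The scanner called miR-188-5p, miR-362-3p and miR-500-3p detected on all 6 arrays. miR-532-5p was detected on 5 of 6 arrays, missing on hypoxic EB array 2. Its partner miR-532-3p was detected on only 2 arrays, at raw intensities of 2.73 on normoxic EB array 1 and 2.18 on mESC array 2. The other 5 entries, miR-188-3p, miR-362-5p, miR-500-5p, miR-501-3p and miR-501-5p, were detected on no array. Each of the 4 hairpins with a measured product thus had a single arm that could be compared between groups, and miR-501 had none. Probes for miR-500-3p and miR-501-3p target sequences that differ at 4 bases, and cross-hybridisation between them was not tested; of this pair, only the miR-500-3p entry had signal.

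Signals are given below after scaling each array to the 75th percentile of those 391 miRNAs that every array detected, which leaves them in the units of the scanner's intensity. The arrays differed before scaling: 495 and 471 miRNAs were detected in hypoxic EBs, 446 and 473 in normoxic EBs and 408 and 415 in mESCs, and the percentile itself was 219 and 175 in hypoxic EBs, 222 and 237 in normoxic EBs and 137 and 140.0 in mESCs. All 6 file names carry a single slide number with different positions, and position and group cannot be told apart. miR-210-3p, a well-known target of the hypoxia-inducible factors, had 171 and 181 scaled units in hypoxic EBs, 79.3 and 73.6 in normoxic EBs and 154 and 142 in mESCs. The ES cell miRNA miR-294-3p had 5851 and 5648 in hypoxic EBs, 7231 and 6415 in normoxic EBs and 8182 and 7788 in mESCs. Of 10 fibroblast miRNAs, 5 were detected on every array, while miR-143-3p and miR-199a-5p were detected on none. The detected signals of the whole list summed to 219 to 242 in hypoxic EBs, 275 to 291 in normoxic EBs and 505 to 526 in mESCs. Most of this sum was miR-21a-5p, with 154 and 147 units in hypoxic EBs, 201 and 179 in normoxic EBs and 415 and 393 in mESCs. miR-199a-3p was detected on all EB arrays, at 4.50 to 7.85 units, and on neither mESC array, and miR-214-3p and miR-145a-5p were detected on a single hypoxic EB array. The part of feeder RNA in the comparisons with mESCs was not tested. In whole cultures, fewer cells of a type and less RNA per cell cannot be told apart.

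The 4 measurable neighbours took different courses. miR-188-5p was highest in hypoxic EBs, miR-500-3p was nearly level, and miR-362-3p and miR-532-5p were lowest in hypoxic EBs and highest in mESCs.

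miR-188-5p, the 5p arm of the second hairpin, had 313 and 362.2 scaled units in hypoxic EBs, 229 and 234 in normoxic EBs and 202 and 213 in mESCs. Both hypoxic arrays lay above all others, and the normoxic EB arrays lay above the mESC arrays by less. Group means were 338 ± 34.7 in hypoxic EBs, 231 ± 3.70 in normoxic EBs and 207 ± 7.79 in mESCs (SD, n = 2 each). The scanner's own error was close to 5% of the signal on every array.

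miR-500-3p, from the hairpin farthest downstream, had 82.4 and 86.7 units in hypoxic EBs, 73.8 and 73.4 in normoxic EBs and 76.3 and 77.2 in mESCs. Its means were 84.5 ± 3.07 in hypoxic EBs, 73.6 ± 0.245 in normoxic EBs and 76.7 ± 0.618 in mESCs (SD, n = 2 each). Although the groups were separated, the whole range was narrow. The difference of hypoxic from normoxic EBs was 1.64 times its scanner error, and that of normoxic EBs from mESCs was 0.489 times its scanner error.

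miR-362-3p, from the third hairpin, had 8.56 and 4.85 units in hypoxic EBs, 11.5 and 11.0 in normoxic EBs and 16.7 and 17.5 in mESCs. The 3 groups were fully separated, in the order opposite to that of miR-188-5p. Means were 6.71 ± 2.62 in hypoxic EBs, 11.2 ± 0.305 in normoxic EBs and 17.1 ± 0.601 in mESCs (SD, n = 2 each). The hypoxic arrays differed most from each other, and the scanner error, 15.8% to 28.9% of the signal, was largest on hypoxic EB array 2.

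miR-532-5p, from the first hairpin, had 3.99 units on hypoxic EB array 1 and was not detected on array 2, against 5.41 and 4.74 in normoxic EBs and 13.8 and 12.9 in mESCs. Its means were 5.07 ± 0.471 in normoxic EBs and 13.3 ± 0.658 in mESCs (SD, n = 2 each). The detected hypoxic array lay below both normoxic EB arrays, and these below both mESC arrays, with a scanner error of 20.2% to 27.9% of the signal. The undetected array entered the fit at a floor of 2.905 units, so no fold is given for hypoxic EBs.

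**Figure D2:**
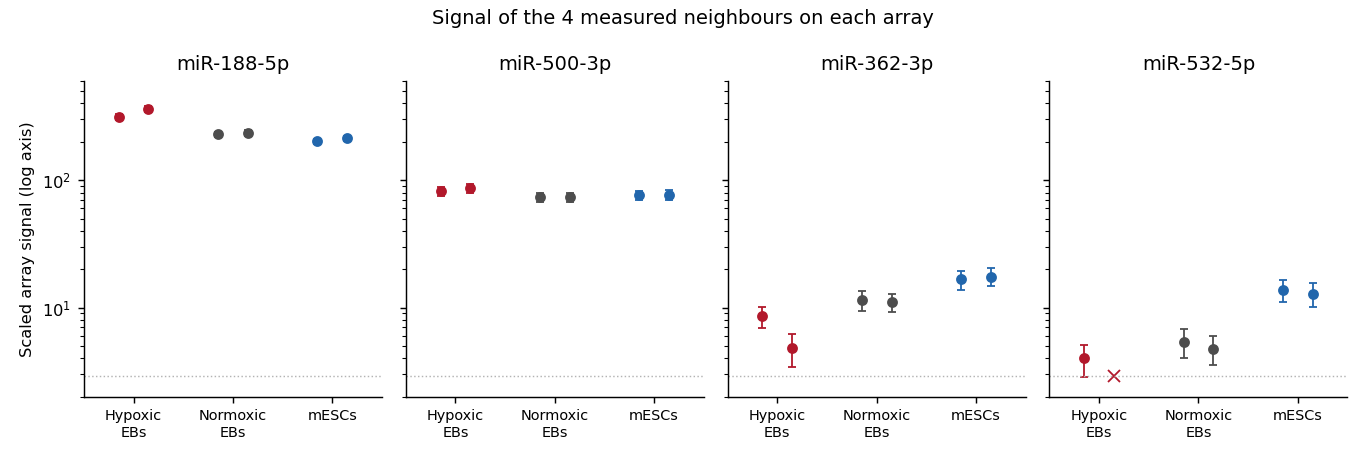
Scaled array signal (log axis) of the 4 neighbours on each array, with hypoxic EBs, normoxic EBs and mESCs left to right. Points are arrays, bars the scanner's error, the dotted line the floor of 2.905 and the cross the hypoxic EB array on which miR-532-5p was not detected; miR-188-5p is highest and miR-362-3p lowest in hypoxic EBs.

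Differences between groups come from a limma fit of log2 scaled signal over 484 miRNAs, those that both arrays of some group detected, with a call at a Benjamini-Hochberg adjusted p under 0.05; the 95% intervals are not adjusted. The fit included 4 of the 10 entries. Because the group was selected with these contrasts in view, the calls below describe its members and support nothing.

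In hypoxic against normoxic EBs the differences of the 4 entries went in both directions, and not all of them passed. Relative to normoxic EBs, miR-188-5p was 1.46-fold higher in hypoxic EBs, a log2 difference of 0.54 (SE 0.086, 95% interval 0.31 to 0.77). miR-500-3p was 1.15-fold higher, with a log2 difference of 0.20 (interval 0.07 to 0.33). Both passed the threshold, so 2 of the 4 entries were called higher, where 32.9% of all tested miRNAs were. miR-362-3p had a log2 difference of −0.80 (SE 0.28, interval −1.55 to −0.05) and did not pass. miR-532-5p passed on the lower side with 1 array at the floor, making 1 of 4 entries called lower, where 25.2% of all tested miRNAs were.

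All 4 entries had groups that did not overlap, as had 84.7% of all tested miRNAs, so that separation says nothing particular about the cluster. The median log2 difference was −0.19 over the 4 entries and 0.10 over all 484. Among all 484, miR-362-3p had the 7th lowest difference and miR-188-5p the 85th highest, and the 4 neighbours spanned 1.34 log2 units. The 5th and 95th percentiles of all tested miRNAs were −0.51 and 0.92. The call of miR-188-5p was lost without scaling (0.31) and without normoxic EB array 1 (0.53). The call of miR-500-3p was lost without either normoxic EB array or either mESC array (0.20 each), and its sign turned without scaling (−0.03). The call of miR-532-5p was lost under most alternatives, and its difference came to −0.34 without hypoxic EB array 2. For miR-362-3p the difference was −1.21 without hypoxic EB array 1 and −0.39 without array 2. Both passed, but each fit leaves 1 hypoxic EB array, which is assumed to vary like the other groups. It also passed with quantile scaling (−0.81) and among only miRNAs detected on all arrays (−0.80). With a floor 4 times as high all hypoxic and normoxic EB arrays of miR-362-3p lie at the floor, and no difference is left.

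Relative to mESCs, hypoxic EBs also showed the neighbours apart, with the 3 entries detected on every array spanning 2.11 log2 units. miR-188-5p was 1.63-fold higher in hypoxic EBs (log2 difference 0.70, interval 0.47 to 0.93) and passed. It was the only one of 4 entries called higher, where 41.3% of all tested miRNAs were. miR-362-3p was 2.65-fold lower in hypoxic EBs (log2 difference −1.41, interval −2.15 to −0.66) and passed. miR-532-5p also passed on the lower side with 1 array at the floor. These 2 of 4 entries called lower compare with 33.7% of all tested miRNAs. For miR-500-3p the log2 difference was 0.14 (interval 0.01 to 0.27) and did not pass. It passed without scaling (0.64) and with median (0.23), quantile (0.15) and hur-control (0.48) scaling, where hur names control features on the array. It also passed with the higher floor, with all mouse miRNAs tested (0.14 each) and without hypoxic EB array 1 (0.18).

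In this comparison too no entry had overlapping groups, as for 88% of tested miRNAs. Among all 484, miR-362-3p had the 11th lowest difference. That of miR-532-5p was set by the floor, at −1.97, −2.47 with the floor at 0.5 of its height and −0.20 with it 4 times as high. The median was −0.63 over the 4 entries and 0.11 over all tested miRNAs. Without scaling the call of miR-362-3p was lost (−0.91), and it was lost as well when all mouse miRNAs were tested. The comparisons with mESCs share arrays with each other and with the hypoxia comparison, so their values are not separate observations.

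Between normoxic EBs and mESCs a single entry passed. miR-532-5p was 2.63-fold lower in normoxic EBs, a log2 difference of −1.40 (SE 0.175, interval −1.86 to −0.93), which was the 10th lowest of 484 and 3.83 times its scanner error. That made 1 of 4 entries called lower, where 25.2% of all tested miRNAs were. None of the 4 was called higher, where 26% of all tested miRNAs were; at an unadjusted p under 0.05 none was either. The log2 difference was 0.16 (interval −0.07 to 0.39) for miR-188-5p and −0.60 (interval −1.35 to 0.14) for miR-362-3p. For miR-500-3p it was −0.060 (interval −0.19 to 0.07).

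All 4 entries again had groups that did not overlap, as had 79.3% of tested miRNAs. The median was −0.33 over the 4 entries and 0.05 over all tested miRNAs. The call of miR-532-5p was lost without scaling (−0.67) and with the floor at 0.5 of its height. Without scaling miR-362-3p turned to 0.12, and miR-188-5p passed on the higher side (0.89), as it did with median (0.24) and hur-control (0.26) scaling. miR-362-3p passed on the lower side with quantile scaling (−0.71), with the higher floor (−0.56), and, at −0.60, among only miRNAs detected on all arrays or without either hypoxic EB array. The sign of miR-500-3p turned without scaling, where it passed on the higher side (0.67). It also turned with the median (0.03), quantile (0.01) and hur-control (0.04) scalings, where it did not pass.

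**Figure D3:**
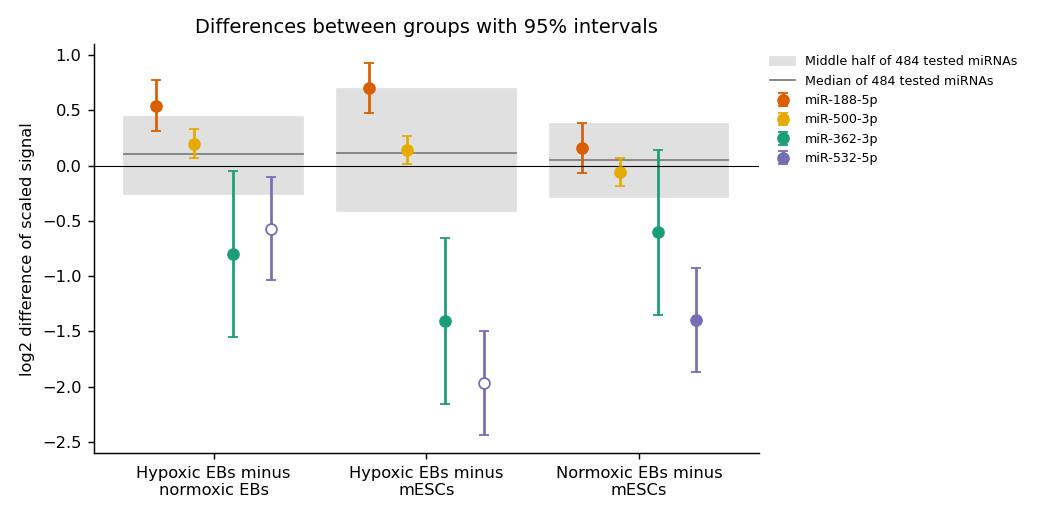
Log2 differences of scaled signal (vertical axis) of the 4 neighbours in the 3 comparisons, with 95% intervals from the limma fit. Grey boxes span the interquartile range of the 484 tested miRNAs with their median as a line, and open circles mark miRNA differences that include an array at the floor; miR-188-5p lies above 0 and miR-362-3p below it wherever hypoxic EBs are compared.

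The distance between 2 neighbours on a single array is unchanged by a scaling factor per array, though quantile scaling can change it. Its change between groups asks directly whether they moved together. The log2 distance of miR-188-5p over miR-362-3p was 5.19 and 6.22 in hypoxic EBs, 4.32 and 4.41 in normoxic EBs and 3.60 on each mESC array. The mean was 1.34 wider in hypoxic than in normoxic EBs, but the hypoxic arrays were themselves 1.03 apart, and hypoxic EB array 1 alone was 0.83 wider than the normoxic mean. Between normoxic EBs and mESCs the mean widened by 0.76, where arrays of a group were at most 0.088 apart. The scanner error of these changes was 0.31 for the hypoxic and 0.25 for the normoxic EBs, and covers the reading of the arrays only.

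The distance of miR-188-5p over miR-532-5p, whose hairpins are nearest to each other, was 6.29 on the hypoxic EB array that detected both. It was 5.40 and 5.62 in normoxic EBs and 3.87 and 4.05 in mESCs. It was 1.55 wider in normoxic EBs than in mESCs, where arrays of a group were at most 0.22 apart and the scanner error was 0.34. miR-188-5p and miR-500-3p stayed closer. Their distance was 1.93 and 2.06 in hypoxic EBs, 1.63 and 1.67 in normoxic EBs and 1.40 and 1.46 in mESCs. It changed by 0.34 in hypoxic over normoxic EBs, where arrays of a group were at most 0.14 apart and the scanner error was 0.14. Against mESCs it was 0.56 wider in hypoxic EBs and 0.22 wider in normoxic EBs, each with a scanner error of 0.14.

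miR-362-3p and miR-532-5p, both low in EBs, also parted in one comparison. The log2 distance of miR-362-3p over miR-532-5p was 1.10 on the hypoxic EB array that detected both, 1.08 and 1.22 in normoxic EBs and 0.27 and 0.44 in mESCs. On the EB arrays their distance was alike, and it was 0.79 wider in normoxic EBs than in mESCs, where arrays of a group were at most 0.17 apart and the scanner error was 0.41.

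**Figure D4:**
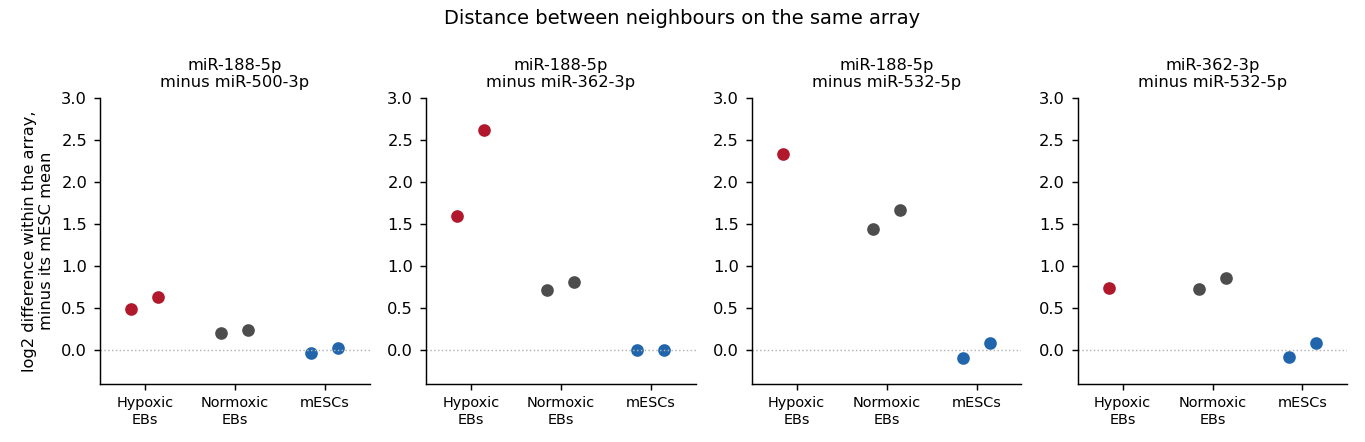
Log2 distance between pairs of neighbours on the same array (vertical axis, after subtracting the mean of the mESC arrays), with hypoxic EBs, normoxic EBs and mESCs left to right. Points are arrays that detected both; the distance of miR-188-5p from miR-362-3p is 1.34 wider in hypoxic than in normoxic EBs, and that of miR-188-5p from miR-500-3p changed by 0.34.

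Likeness was measured as the root mean square difference of 2 profiles over the 6 arrays, each as log2 signal centred on its own mean. It was 0.236 between miR-188-5p and miR-500-3p, 0.690 between miR-362-3p and miR-500-3p and 0.921 between miR-188-5p and miR-362-3p. Over all pairs of the 391 miRNAs detected on every array the median was 0.381, and 97.2% of pairs were closer than miR-188-5p and miR-362-3p. Of the other 388 miRNAs, those nearest to the mean profile of the 3 neighbours were miR-141-3p (0.073), miR-450a-5p, miR-350-3p, miR-292-5p, miR-103-3p and miR-1198-5p (0.095).

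That mean profile averages opposed courses, so the nearest miRNA to each neighbour was also looked up, a step added after the values were seen. miR-3077-5p was nearest to miR-188-5p (0.015), with a log2 difference of 0.54 in hypoxic over normoxic EBs. miR-302d-5p, the minor arm of an ES cell miRNA, was nearest to miR-362-3p (0.136), with a difference of −0.51. miR-3070b-3p was nearest to miR-500-3p (0.068), with a difference of 0.21. In the RefSeq table miR-7061-3p shares the seed of miR-188-5p and miR-329-3p that of miR-362-3p; neither was among the tested miRNAs.

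Other hairpin groups give a scale for this divergence. Hairpins on a strand were linked where gaps were under 10 kb in the RefSeq table. Other groups held only tested miRNAs whose name had a single match among that table's mature sequences, so they can lack members. miR-532-5p had no such match and was placed in the Clcn5 group by its hairpin. On these terms, 12 other groups had at least 3 tested miRNAs. The SD of the log2 differences of hypoxic EBs from mESCs among the Clcn5 neighbours was 1.26, with miR-532-5p at the floor on 1 array. It ranged from 0.056 to 0.727 in the other groups, with a median of 0.504. For normoxic EBs against mESCs it was 0.69, where the other groups ranged from 0.114 to 0.661. By lowest to highest difference the Clcn5 neighbours were not the widest there, at −1.40 to 0.16 over 4 miRNAs. Mir17 to Mir92-1, for example, ran from −0.16 to 1.46 over 9 miRNAs. For hypoxic against normoxic EBs the SD of the Clcn5 neighbours was 0.63, and 2 of the 12 other groups had a larger SD. Among miRNAs detected on every array the SD of hypoxic EBs against mESCs was 1.09 over 3 neighbours, against at most 0.744 in 11 other groups. In the comparison of normoxic EBs with mESCs, 1 of those 11 then had a larger SD than the 0.39 of the Clcn5 neighbours. In Mir363 to Mir106a, the other X-linked group, the log2 differences in hypoxic over normoxic EBs lay between −0.54 and −0.22. Against mESCs this group was spread more widely, from −0.54 to 1.04 in hypoxic EBs and from −0.19 to 1.56 in normoxic EBs. The range in normoxic EBs against mESCs was wider than that of the Clcn5 neighbours. These ranges cover the 6 tested miRNAs with a single match, and miR-363-5p, also tested, was not among them. This comparison of groups is a description, was chosen after the values were seen and carries no test.

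**Figure D5:**
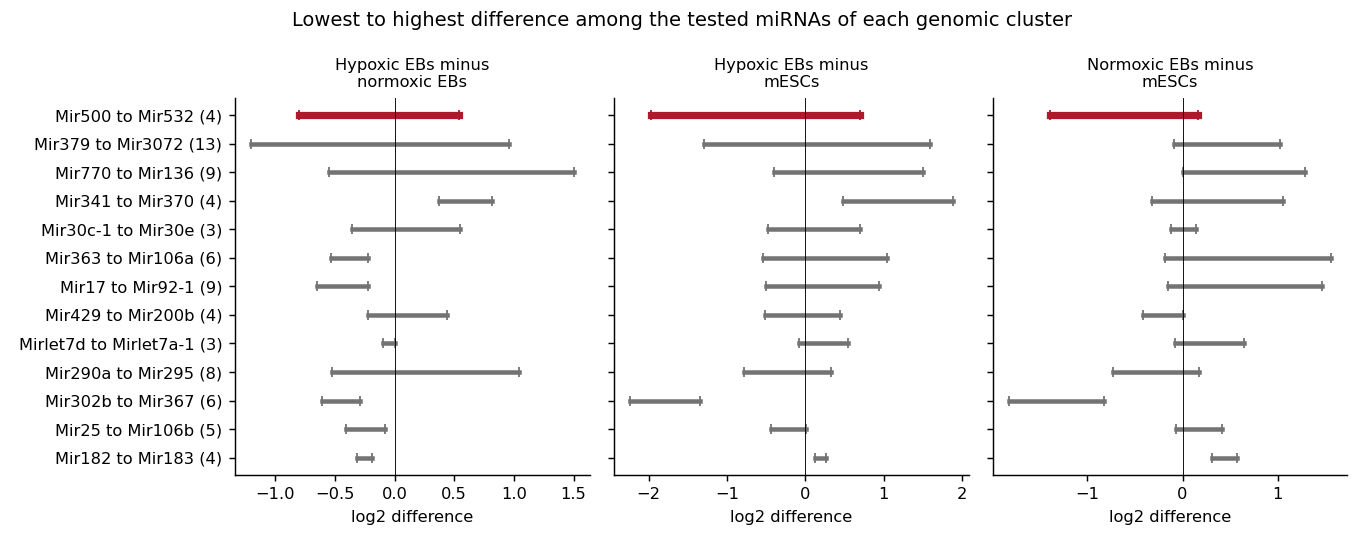
Lowest to highest log2 difference (horizontal axes) among the tested miRNAs placed in each group of hairpins linked by gaps under 10 kb. Numbers of placed miRNAs are in parentheses, and tested miRNAs without a single match in the RefSeq table are missing from the other groups. The Clcn5 neighbours (Mir500 to Mir532, red, top) run from −1.97 to 0.70 for hypoxic EBs minus mESCs, with the lower end set by miR-532-5p at the floor.

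Other X-linked miRNAs were taken as those matched to the X chromosome in the RefSeq table. Only 357 of the 484 tested miRNAs had a sequence in that table, so X-linked miRNAs can be missing. Of 29 such miRNAs tested, 9 were called higher and 9 lower in hypoxic than in normoxic EBs. Their median log2 difference was −0.08, and 32.9% and 25.2% of all tested miRNAs were called higher and lower. Values ran from −0.54 for miR-20b-3p to 1.00 for miR-5116. Against mESCs 10 were called higher and 14 lower in hypoxic EBs, with a median of −0.26, where 41.3% and 33.7% of all tested miRNAs were. In normoxic EBs against mESCs 7 were called higher and 8 lower, with a median of −0.05, where 26% and 25.2% were.

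Brightness differed between the neighbours as well. With the tested miRNAs split into 3 classes of like size by mean signal, miR-188-5p belonged to the brightest class, miR-500-3p to the middle one, and miR-362-3p and miR-532-5p to the dimmest. The part of brightness in the differences was not tested. The neighbours also differ in base composition, with G and C making up 61.9% of miR-188-5p, 54.5% of miR-500-3p and 40.9% of miR-362-3p, the order of their differences under hypoxia. A check of composition over all tested miRNAs is void, because only 357 of the 484 had a sequence, and its part in the differences was not tested.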

How the data were processed

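Single-colour (Cy3) Agilent miRNA arrays of total RNA were used, 2 for each of 3 groups. Per the file headers, the deposited scanner files hold, for each of 1268 features (21 of them controls), an intensity summed per miRNA, with an error estimate and a flag for detection; undetected miRNAs are deposited at 0.1. The labels' protocols describe a cRNA labelling kit usual for messenger RNA, and which labelling these miRNA arrays had is not settled here. Scanner software is not given in the sources used here. The authors also deposited a series table with a normalized ratio per array; its raw intensities equalled the scanner files in all 1253 shared rows (difference under 0.001). Its ratio was used as an alternative only, and 6 of its columns, from arrays that match no sample, were not used.

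Intensities were divided by each array's 75th percentile over 391 miRNAs that every array detected, rescaled by the average percentile (188), raised to at least 2.905 (the highest of the arrays' lowest detected signals) and log2-transformed. For 484 miRNAs, those that both arrays of some group detected, group means were fitted over all arrays in R 4.3.3 with lmFit and eBayes of limma 3.58.1 (3 residual and 1.43 prior df). Adjustment was by Benjamini-Hochberg over all of them in each comparison, at a threshold of 0.05. The fit was tested on simulated data. Figures were drawn with matplotlib 3.10.9 in Python 3.11.15.

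Members and lists were chosen with earlier results of these data known. Named miRNAs were every entry of the group, the 6 non-members nearest to the mean profile of the members detected on all arrays, other X-linked miRNAs, seed relatives, miR-210-3p and miR-294-3p. Positions and sequences come from RefSeq tables of GRCm38.p6, and other X-linked miRNAs without a match there are missing. Array number limits the precision. Alternatives were other scalings, floors and filters, the replicate number as a block, and each array left out.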

Additional observations from a re-analysis of the deposited data

How the results depend on the processing

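Of 201 alternative values of the 12 single-entry differences, 145 stayed on their side of the threshold without a turn of sign. Also without a turn of sign, 26 lost the call and 21 gained one. The remaining 9 turned sign, some of them with a call lost or gained as well. Among the 145, miR-362-3p in hypoxic against normoxic EBs was 0 with a floor 4 times as high, where all its EB arrays lie at the floor. Without scaling, and with the authors' ratio, which is unscaled between arrays, miR-362-3p in normoxic EBs against mESCs turned to 0.12, miR-500-3p in hypoxic against normoxic EBs to −0.03 and in normoxic EBs against mESCs to 0.67. The last turned to 0.025 with median, 0.0091 with quantile and 0.043 with hur-control scaling.

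The count of called neighbours in hypoxic against normoxic EBs was 3, and 0 without scaling or with the ratio; leaving out each array gave 0 to 4, with 0 without normoxic EB array 1 and 1 without normoxic EB array 2 or either mESC array. In normoxic EBs against mESCs it was 1. It was 2 with median, quantile, hur-control or no scaling, the ratio or a floor 4 times as high, 0 with the floor at 0.5 of its height, and 1 to 2 with each array left out (2 without either hypoxic EB array).

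Over all tested miRNAs, 281 were called in hypoxic against normoxic EBs (159 higher, 122 lower), 139 without scaling or with the ratio (24 higher, 115 lower), 246 with hur-control scaling (231 higher, 15 lower) and 132 with all mouse miRNAs tested, and 160 to 264 with each array left out, the lowest without normoxic EB array 1 and 173 without hypoxic EB array 2. In normoxic EBs against mESCs 248 were called (126 higher, 122 lower), 337 without scaling (326 higher, 11 lower), 154 with the higher floor, 152 with all mouse miRNAs, and 142 to 258 with each array left out, the lowest without mESC array 1. In hypoxic EBs against mESCs 363 were called (200 higher, 163 lower), 270 without scaling (251 higher, 19 lower) and 311 with hur-control scaling (251 higher, 60 lower). The median of all miRNAs moved to 0.74 in normoxic EBs against mESCs without scaling and to 0.34 in hypoxic against normoxic EBs with hur-control scaling.

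The mean log2 difference of the 4 entries in hypoxic against normoxic EBs was −0.16. It was −0.020 over the 3 detected on all arrays, −0.40 without scaling or with the ratio, −0.032 with quantile and 0.044 with hur-control scaling, 0.19 with the higher and −0.28 with the lower floor, and −0.28 to −0.034 with each array left out. In hypoxic EBs against mESCs it was −0.63, with −0.19, −0.15, −0.47, −0.33, 0.022 and −0.76 under the same alternatives in that order and −0.76 to −0.51 with each array left out. In normoxic EBs against mESCs it was −0.48, with −0.33 as the median over the entries, −0.17 over the 3 detected on all arrays, 0.25 without scaling or with the ratio and −0.16 with the higher floor. The cause of these shifts was not tested.

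Replicate numbers are shared between groups, but same-numbered arrays did not deviate together (correlations of 0.11, 0.15 and −0.026). With the replicate number as a replicate block, 3, 3 and 1 neighbours were called in hypoxic EBs against normoxic EBs, hypoxic EBs against mESCs and normoxic EBs against mESCs, and 263, 357 and 242 of all tested miRNAs. Replicate arrays differed by 0.58 to 0.83 of the scanner's error, so the fit's spread may be smaller than that between cultures. The dim miR-362-3p and miR-532-5p are limited by signal near the floor.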
